A study of Homo sapiens with 12 samples.

Results

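The S100 genes described here are 10 of the 23228 genes in the deposited files: S100A2, S100A4, S100A6, S100A7, S100A7A, S100A8, S100A9, S100A10, S100A14 and S100A16. They were measured by RNA sequencing in MDA-MB-468, a triple-negative breast cancer line carrying estrogen receptor beta 1 (ERβ1, gene ESR2) under the control of doxycycline. All cells had stripped serum, at 10% for 3 days and then 5%. There were 4 groups of 3 libraries. Induced E2 cells had 50 ng/mL doxycycline for 48 hours and then 10 nM 17β-estradiol (E2) for 4 hours. Induced vehicle cells had the same doxycycline and then 0.1% DMSO for 4 hours. Uninduced E2 cells had no doxycycline and 10 nM E2, and uninduced vehicle cells had neither, only 0.1% DMSO. No group had doxycycline without the receptor gene, so doxycycline and the receptor it turns on cannot be told apart. The labels do not say whether the line is 1 clone, nor whether the triplicates are separate cultures. Any p-value here thus covers the spread among these libraries, which may be technical. The genes were listed because S100A7, S100A8 and S100A9 were already known to be higher with doxycycline in these libraries without E2. For all 10 genes that comparison is therefore given as values with no test, and for S100A7, its near copy S100A7A, S100A8 and S100A9 every value that rests on induced libraries is given the same way.

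S100 proteins are small calcium sensors built from a pair of EF-hand motifs. They bind calcium, change shape and dock on partner proteins, and most work as dimers. Most of their genes lie side by side on chromosome 1, in the epidermal differentiation complex. S100A8 and S100A9 pair to form calprotectin, a metal-binding antimicrobial complex that is abundant in neutrophils and also made by stressed or inflamed epithelium. S100A7 (psoriasin) and S100A7A (koebnerisin) are antimicrobial and chemotactic proteins, and S100A7 is known from psoriatic skin and from ductal carcinoma of the breast.

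The sequences upstream of the 4 genes with the largest doxycycline differences of the 10 are shown, and S100A7 and S100A7A are near copies of each other there. These windows lie before the transcripts. It is the coding comparison further below that bears on how reads were shared between the copies. All are from RefSeq on GRCh38.p14, 5′ to 3′ on the gene's own strand. S100A9 (chr1:153357604-153357853, plus strand) and S100A8 (chr1:153391189-153391438, minus strand, the most upstream of 3 listed starts) are the 250 bases before the start. Capitals mark a TATA box in S100A9 and the sequence tgacc, 1 arm of an estrogen response element, in S100A8. For S100A7 (chr1:153460702-153460901, minus strand) and S100A7A (chr1:153416270-153416469, plus strand) the 200 bases that end 50 bases before the RefSeq start are shown, because GENCODE starts S100A7 50 bases upstream of RefSeq, with capitals where the copies differ.
S100A9: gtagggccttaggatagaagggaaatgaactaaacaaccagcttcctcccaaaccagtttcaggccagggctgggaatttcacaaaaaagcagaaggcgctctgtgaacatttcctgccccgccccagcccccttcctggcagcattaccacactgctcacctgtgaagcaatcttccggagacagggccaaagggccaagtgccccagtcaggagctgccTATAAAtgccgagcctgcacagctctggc
S100A8: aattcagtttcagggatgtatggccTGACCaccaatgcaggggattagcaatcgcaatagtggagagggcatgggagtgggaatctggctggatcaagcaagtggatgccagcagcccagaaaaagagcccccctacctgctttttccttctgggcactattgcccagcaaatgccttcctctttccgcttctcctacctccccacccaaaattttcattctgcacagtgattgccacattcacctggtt
S100A7: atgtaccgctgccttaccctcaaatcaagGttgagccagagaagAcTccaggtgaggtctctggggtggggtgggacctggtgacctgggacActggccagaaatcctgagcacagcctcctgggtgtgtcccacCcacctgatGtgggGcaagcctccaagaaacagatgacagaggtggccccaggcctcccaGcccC
S100A7A: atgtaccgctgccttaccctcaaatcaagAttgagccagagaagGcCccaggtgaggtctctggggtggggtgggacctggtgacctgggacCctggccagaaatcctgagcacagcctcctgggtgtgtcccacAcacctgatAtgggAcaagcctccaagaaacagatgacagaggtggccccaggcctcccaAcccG
Counted from 1 at the 5′ end, with the S100A7 base first, the 9 differences are G30A, A45G, T47C, A93C, C136A, G145A, G150A, G196A and C200G. Over the full 250 bases the windows were 96.4% identical, and no base differed in the last 50. The coding sequences of the GENCODE transcripts, 303 bases each, were 96% identical with 12 differences, and the longest identical run was 79 bases. Of the 50-base stretches of the S100A7 coding sequence, 18.1% occurred unchanged in S100A7A. The deposited values are estimated counts that share such reads out between the copies, so the split between these genes is uncertain.

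Motifs were searched on both strands in the 250 bases before each of the 14 starts that RefSeq lists for the 10 genes. The full estrogen response element, a palindrome of the arm GGTCA with 3 free bases between the arms, was in 0 of the 14 windows and in 0.0399% of all 35116 promoters. The single arm GGTCA was in 8 of the 14 windows, from 6 genes (S100A4, S100A7, S100A7A, S100A8, S100A14 and S100A16), and in 32.6% of all promoters. The TATA box TATAAA was in 6 of the 14 windows, from 5 genes (S100A4, S100A7, S100A7A, S100A8 and S100A9), and in 10.7% of all promoters. For S100A8 it lay before other listed starts, not in the window shown above. For S100A7 the match ends 22 bases before the RefSeq start, which is downstream of the GENCODE start. The AP-1 site TGANTCA was upstream of S100A2 alone among the 10 genes and is in 6.57% of all promoters. The C/EBP core TTGCNNAA was in 0 of the 14 windows and in 9.05% of all promoters. These matches describe letters in a window and nothing about binding.

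Library totals lay between 7.89 M and 33.3 M expected counts. Levels are given as CPM, counts relative to the library total after TMM scaling, as mean ± SD over n = 3 libraries. ESR2 was at 104 ± 10.2 CPM in induced E2 cells, 121 ± 11.7 in induced vehicle cells, 1.61 ± 0.57 in uninduced E2 cells and 1.30 ± 0.22 in uninduced vehicle cells. Epithelial markers summed to 10456 to 10715 CPM in induced E2 libraries, 9236 to 9622 in induced vehicle, 8591 to 9058 in uninduced E2 and 8828 to 9153 in uninduced vehicle. Replicate number, sequencing lane and the date in the file names go together, with number 1 on the earlier date and numbers 2 and 3 on the later one. Libraries of the same number deviated together, so a fit with the number as a block is given where it changes a call of a named gene or moves a count of calls by over 1.5 times. The E2 difference of ESR2 in induced cells was -0.21 log2 (SE 0.08), with an adjusted p of 0.119 in edgeR and 0.00030 with the block. All 10 genes passed the filter on low counts, as did 14541 of the 23228 genes.

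Without E2, doxycycline went with higher S100A7, S100A7A, S100A8 and S100A9, and with differences from -0.27 to 0.14 log2 in the other 6. S100A7 was at 254, 187 and 189 CPM in induced vehicle libraries 1 to 3, against 65.7, 58.5 and 61.5 CPM in uninduced vehicle libraries. Every induced library was above every uninduced one, and induced library 1 stood above the other two. The difference was 1.77 log2 (SE 0.10). S100A7A was at 18.2, 14.2 and 13.5 CPM in induced vehicle libraries, against 5.75, 3.28 and 4.13 CPM in uninduced vehicle libraries. It rests on fewer counts than its copy, 234 to 453 expected counts in induced vehicle libraries and 46.4 to 104 in uninduced vehicle libraries, and the difference was 1.90 log2 (SE 0.19). The groups did not overlap.

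The calprotectin genes S100A8 and S100A9 were 2.10-fold and 2.07-fold higher with doxycycline. S100A8 was at 137, 125 and 131 CPM in induced vehicle libraries, against 62.0, 62.5 and 62.2 CPM in uninduced vehicle libraries. S100A9 was at 559, 459 and 451 CPM in induced vehicle libraries, against 251, 236 and 225 CPM in uninduced vehicle libraries. Groups did not overlap for either gene, and again library 1 was highest among the induced libraries. The differences were 1.07 log2 (SE 0.05) for S100A8 and 1.05 log2 (SE 0.08) for S100A9. The 2 genes kept their proportion in per-length level (TPM), the authors' fraction of transcripts rescaled to a common total. The S100A9 over S100A8 ratio was 3.50 ± 0.37 in induced E2 libraries, 3.33 ± 0.29 in induced vehicle, 3.50 ± 0.39 in uninduced E2 and 3.40 ± 0.19 in uninduced vehicle (SD, n = 3 each).

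**Figure D1:**
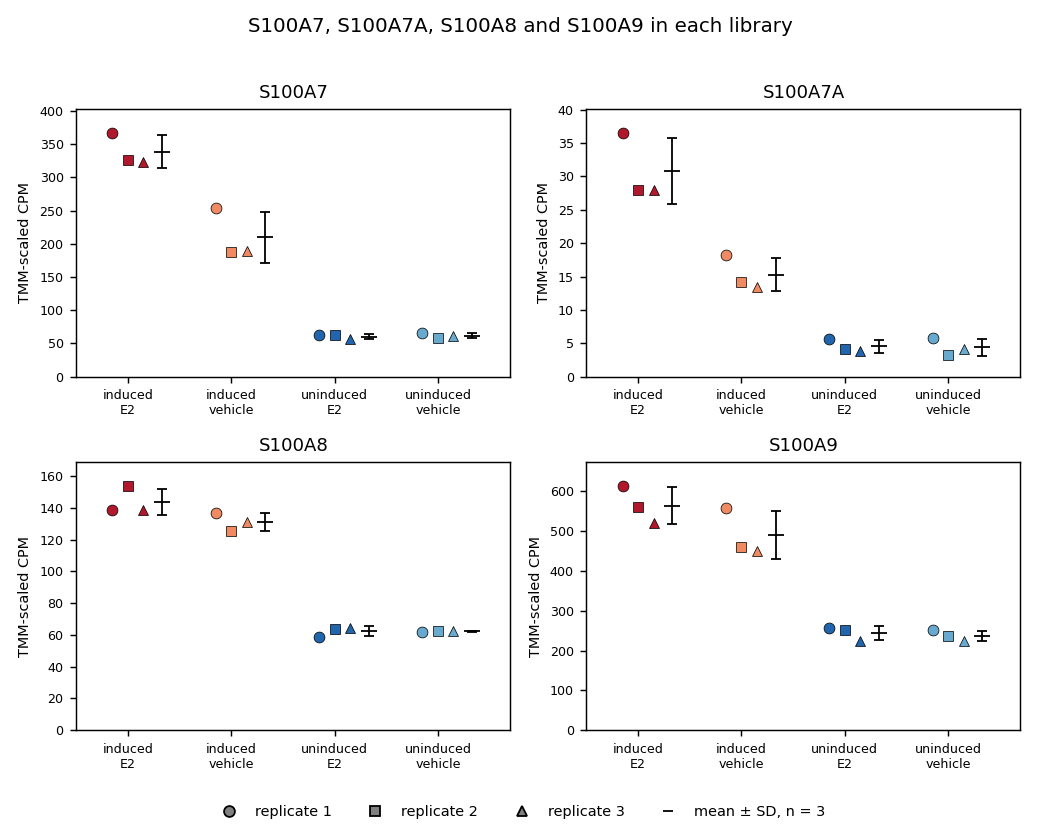
TMM-scaled CPM (vertical axes, each from 0) of S100A7, S100A7A, S100A8 and S100A9 in the 12 libraries by group, with symbols for the replicate number and bars for the mean ± SD of 3 libraries. The 3 induced vehicle libraries lie above all uninduced libraries in each panel, and S100A7 is higher again in induced E2 libraries, at 322 to 367 CPM.

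The remaining 6 genes had smaller differences in this comparison. S100A2, described as a tumour suppressor in breast epithelium, had 105.5, 103 and 99.1 CPM in induced vehicle libraries, against 128.5, 126.5 and 118 CPM in uninduced vehicle libraries, a difference of -0.27 log2 (SE 0.05). It was the lowest difference of the 10 genes, with no overlap between the groups. S100A14, an epithelial family member, differed by 0.14 log2 (SE 0.04). S100A6 (calcyclin) differed by 0.07 (SE 0.04), S100A16 by 0.06 (SE 0.05), S100A4 (metastasin, a partner of non-muscle myosin) by -0.02 (SE 0.04) and S100A10 (p11, the partner of annexin A2) by -0.01 (SE 0.04), all in log2. By all 3 libraries against all 3, 6 of the 10 genes lay above and 2 below; over all genes tested, 10.5% lay above and 10.1% below. Since the genes were listed from this comparison, those counts are a description only. The median difference of the 10 was 0.10 log2 and that of all genes tested 0.00. Among all genes 3.81% were called in this comparison at an adjusted p under 0.05 (554 genes), and 10% with the replicate block (1456 genes).

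**Figure D2:**
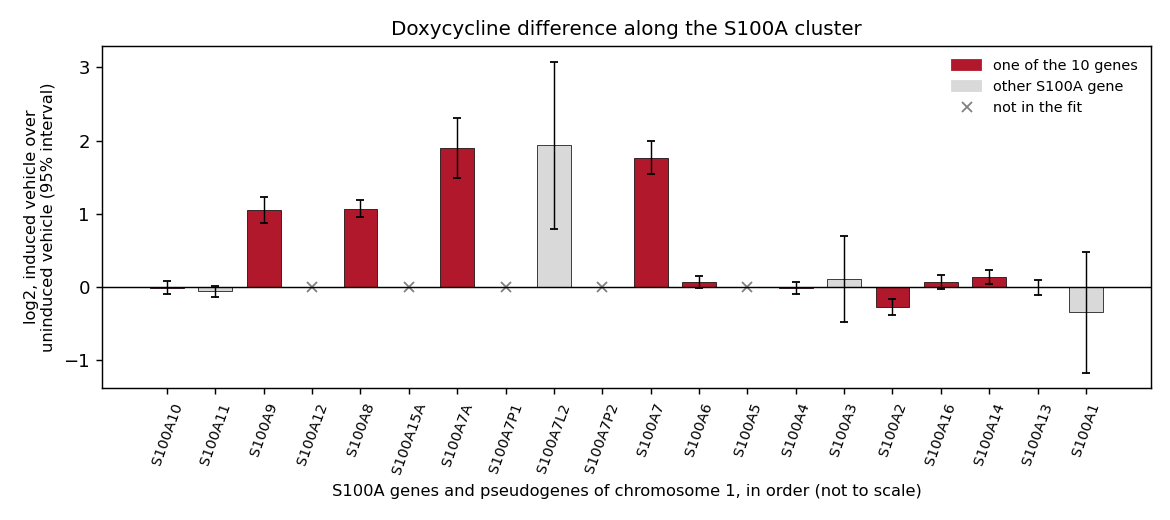
Log2 difference of induced vehicle over uninduced vehicle cells (vertical axis, bars with 95% intervals) for S100A genes and pseudogenes in their order on chromosome 1, not to scale. For the 10 genes, which were listed from this comparison, the intervals are a description with no test. The 4 highest of the 10 genes lie in the run from S100A9 to S100A7, with S100A6 and S100A10 on either side near 0; crosses mark genes left out of the fit by the filter.

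In chromosome order the genes with the larger differences were neighbours. The RefSeq order on GRCh38.p14 is S100A10, S100A11, S100A9, S100A12, S100A8, S100A7A, S100A7L2, S100A7 and S100A6, leaving out the pseudogenes. S100A12, a neutrophil gene between S100A9 and S100A8, did not pass the filter and reached at most 0.125 CPM. The sequence of S100A7L2 was not compared with that of S100A7. This gene had 3, 17 and 10 counts in induced vehicle libraries and 1, 4 and 2 in uninduced vehicle libraries. Its difference was 1.93 log2 (SE 0.53), given without a test as for S100A7A. With E2 in induced cells S100A7L2 differed by -0.17 log2 (SE 0.40). At so few counts, any reads shared with S100A7 could not be told apart from its own.

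Adding E2 to induced cells went with a further difference in S100A7 and S100A7A, and a small one in S100A8 and S100A9. S100A7 was at 367, 326.5 and 322 CPM in induced E2 libraries, against 254, 187 and 189 CPM in induced vehicle libraries. Every E2 library was above every vehicle library, and the difference was 0.69 log2 (SE 0.10). S100A7A was at 36.5, 28.0 and 28.0 CPM in induced E2 libraries, against 18.2, 14.2 and 13.5 CPM in induced vehicle libraries, 1.03 log2 higher (SE 0.15). S100A8 was at 139, 153.5 and 139 CPM in induced E2 libraries, against 137, 125 and 131 CPM in induced vehicle libraries, a difference of 0.14 log2 (SE 0.05). Its E2 libraries lay just above its vehicle libraries, and the difference was 0.06 without number 2 and 0.09 without induced E2 library 2. S100A9 was at 612, 560 and 520 CPM in induced E2 libraries, against 559, 459 and 451 CPM in induced vehicle libraries, a difference of 0.21 log2 (SE 0.08), and these groups overlapped. Without induced vehicle library 1 it was 0.31.

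The part of the gain already present without E2 differed among the 4 genes. For each replicate number, the gain in CPM of induced vehicle over uninduced vehicle cells was taken as a share of the gain of induced E2 over uninduced vehicle cells. That share was 85.3% ± 14.7 for S100A8, 76.9% ± 8.16 for S100A9, 53.2% ± 8.24 for S100A7 and 41.3% ± 2.71 for S100A7A (SD, n = 3). For S100A7 it was 62.7% in number 1, 48.1% in number 2 and 48.7% in number 3. On the CPM scale, then, close to equal parts of the S100A7 gain were present with doxycycline alone and added with E2, and for S100A7A more than that was added with E2. The S100A7 over S100A8 ratio in per-length level shows the same gap, at 2.92 ± 0.32 in induced E2 libraries, 1.98 ± 0.28 in induced vehicle, 1.20 ± 0.11 in uninduced E2 and 1.23 ± 0.08 in uninduced vehicle. S100A7A made up 8.32% ± 0.64 of the counts of the pair in induced E2 libraries, 6.79% ± 0.23 in induced vehicle, 6.94% ± 1.14 in uninduced E2 and 6.57% ± 1.42 in uninduced vehicle.

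In the other 6 genes the E2 difference in induced cells was at most 0.22 log2 in size. In edgeR's quasi-likelihood test 2 of the 6 fell and 0 rose, where 16.5% of all genes tested were called, 6.61% lower and 9.85% higher. The split over all genes, 1433 higher and 961 lower, was 1258 and 1206 with upper quartile scaling and 1053 and 1184 in limma on TPM plus 0.1. With the replicate block 4 of the 6 were called and 23.8% of all genes. By all 3 libraries against all 3, 16.6% of all genes lay above and 13.9% below. S100A10 was at 169, 160 and 158 CPM in induced E2 libraries, against 196, 184 and 185 CPM in induced vehicle libraries. The groups did not overlap, and S100A10 fell by 0.22 log2 (SE 0.04, adjusted p = 0.0018 in edgeR). S100A4 was at 129, 137 and 129 CPM in induced E2 libraries, against 145, 145 and 144 CPM in induced vehicle libraries, and fell by 0.14 log2 (SE 0.04, adjusted p = 0.0155 in edgeR). S100A6 was at 500.4, 473 and 462 CPM in induced E2 libraries, against 541.5, 504 and 495 CPM in induced vehicle libraries. Its groups overlapped, and the difference of -0.10 log2 (SE 0.04) had an adjusted p of 0.0982 in edgeR and 0.0190 with the replicate block. S100A14 differed by 0.09 log2 (SE 0.04), with an adjusted p of 0.17 in edgeR and 0.0263 with the block. S100A2 and S100A16 differed by 0.03 and 0.02 log2, with 95% intervals of -0.08 to 0.14 and -0.08 to 0.11. With the block S100A10 and S100A4 stayed called (adjusted p = 6.69e-06 and 0.00288, edgeR). With no block both calls ended when number 2 or number 3 was left out (S100A10 adjusted p = 0.0594 and 0.0742, S100A4 0.0767 and 0.227, edgeR). The S100A4 call also ended without induced vehicle library 2, induced E2 library 1 or induced E2 library 3 (adjusted p = 0.0678, 0.0558 and 0.0716, edgeR).

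**Figure D3:**
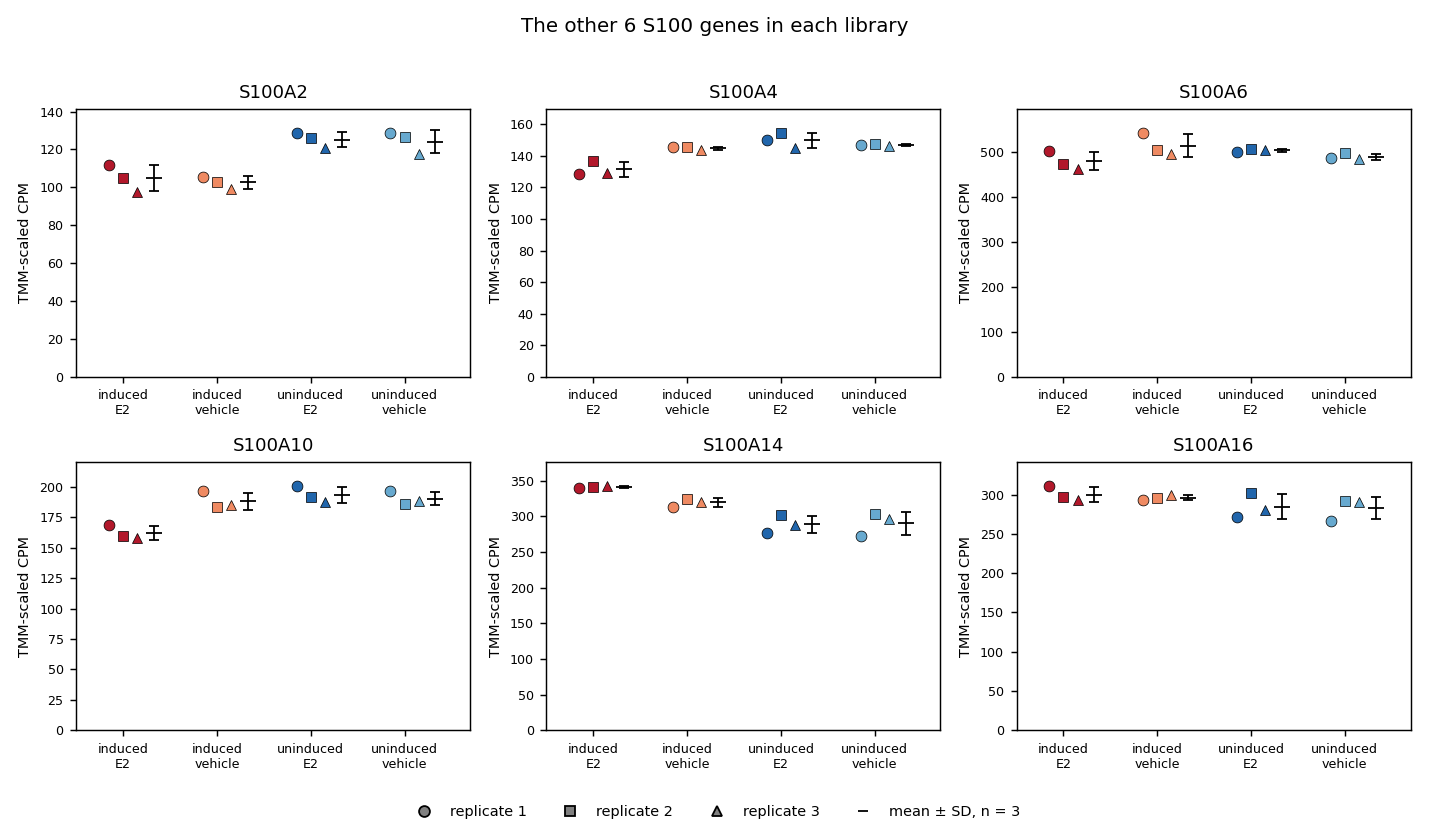
TMM-scaled CPM (vertical axes, each from 0) of S100A2, S100A4, S100A6, S100A10, S100A14 and S100A16 in the 12 libraries by group, with symbols for the replicate number and bars for the mean ± SD of 3 libraries. S100A10 is lowest in induced E2 libraries at 158 to 169 CPM, and S100A2 is lower in both induced groups than in both uninduced groups.

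In cells given E2, doxycycline went with the widest spread of the family. S100A7 averaged 339 ± 24.5 CPM in induced E2 cells and 60.5 ± 3.60 CPM in uninduced E2 cells, 2.48 log2 higher (SE 0.10). S100A7A averaged 30.8 ± 4.91 CPM in induced E2 cells and 4.54 ± 0.94 CPM in uninduced E2 cells, 2.79 log2 higher (SE 0.17). S100A8 was 1.20 log2 higher (SE 0.05) and S100A9 1.21 log2 higher (SE 0.08), close to their values without E2. These comparisons share no library with those in vehicle, but earlier results of these data were known when the genes were listed. The closeness is thus a description only.

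Of the other 6 genes, 3 fell and 1 rose with doxycycline in E2-treated cells by edgeR's quasi-likelihood test, where 28% of all genes tested were called, 13% lower and 15% higher. That split turned with the scaling: 2184 genes were higher and 1894 lower here, 1799 higher and 2679 lower with upper quartile scaling, and 1646 higher and 2380 lower in limma on TPM plus 1. S100A2 was at 112, 105 and 97.8 CPM in induced E2 libraries, against 129, 126 and 121 CPM in uninduced E2 libraries, and fell by 0.26 log2 (SE 0.05, adjusted p = 0.00144 in edgeR). S100A10 fell by 0.25 log2 (SE 0.04, adjusted p = 0.000276) and S100A4 by 0.19 log2 (SE 0.04, adjusted p = 0.00118) in the same test. S100A14 was at 339, 341 and 342 CPM in induced E2 libraries, against 277, 301 and 288 CPM in uninduced E2 libraries, and rose by 0.24 log2 (SE 0.04, adjusted p = 0.000539 in edgeR). The groups overlapped for none of these 4 genes, where 20.9% of all genes had all 3 induced libraries above and 20.5% all 3 below. S100A6 differed by -0.07 log2 (95% interval -0.16 to 0.01) and S100A16 by 0.08 log2 (95% interval -0.02 to 0.17), neither called. S100A6 was called lower with upper quartile scaling (adjusted p = 0.0451, edgeR) and without number 1 (0.00489, edgeR). It was also called lower in limma on TPM plus 1 (adjusted p = 0.0463) or plus 0.1 (0.0453). Without number 2, S100A2 was no longer called (adjusted p = 0.0534, edgeR).

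In uninduced cells E2 moved 0 of the 10 genes past the threshold in edgeR, where the share called over all genes tested was 0% and 227 genes lay below an unadjusted p of 0.05. DESeq2 called 1 gene among all tested. Here all 10 genes could be tested, because no induced library enters. S100A7 was at 62.0, 63.0 and 56.4 CPM in uninduced E2 libraries, against 65.7, 58.5 and 61.5 CPM in uninduced vehicle libraries, and these groups overlapped. The 95% interval of its difference ran from -0.25 to 0.21 log2. For S100A7A it ran from -0.34 to 0.61, for S100A8 from -0.11 to 0.12 and for S100A9 from -0.14 to 0.22. The other 6 intervals lay between -0.10 and 0.12 log2.

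Whether E2 acted differently in induced and uninduced cells was tested as the interaction, the E2 difference in induced minus that in uninduced cells. In edgeR's quasi-likelihood test it was called for 1 of the 6 genes tested, S100A10, at -0.24 log2 (SE 0.06, adjusted p = 0.0184), where 8.47% of all genes were called. With the replicate block 3 of the 6 and 14.7% of all genes were called, S100A10 among them (adjusted p = 0.000229, edgeR). The S100A10 value was negative in each of the 3 replicate numbers. With no block its call ended without number 2 or 3 (adjusted p = 0.258 and 0.248, edgeR). It also ended without uninduced vehicle library 2 or 3 or induced E2 library 2 or 3 (adjusted p = 0.0541, 0.0505, 0.0537 and 0.0562, edgeR). S100A4 had -0.17 log2 (SE 0.05, adjusted p = 0.0604 in edgeR, 0.0143 with the block) and S100A6 -0.14 (SE 0.05, adjusted p = 0.154, 0.0315 with the block). S100A2, S100A14 and S100A16 had 0.02, 0.10 and 0.01 log2, not called. The values for S100A7, S100A7A, S100A8 and S100A9, given without a test, were 0.72, 0.89, 0.13 and 0.16 log2. Without number 2 the S100A8 value was 0.06, and without induced E2 library 2 it was 0.08. The S100A9 value was 0.27 without induced vehicle library 1, and 0.10 without induced E2 library 1 or uninduced E2 library 3 and 0.11 without induced vehicle library 3.

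**Figure D4:**
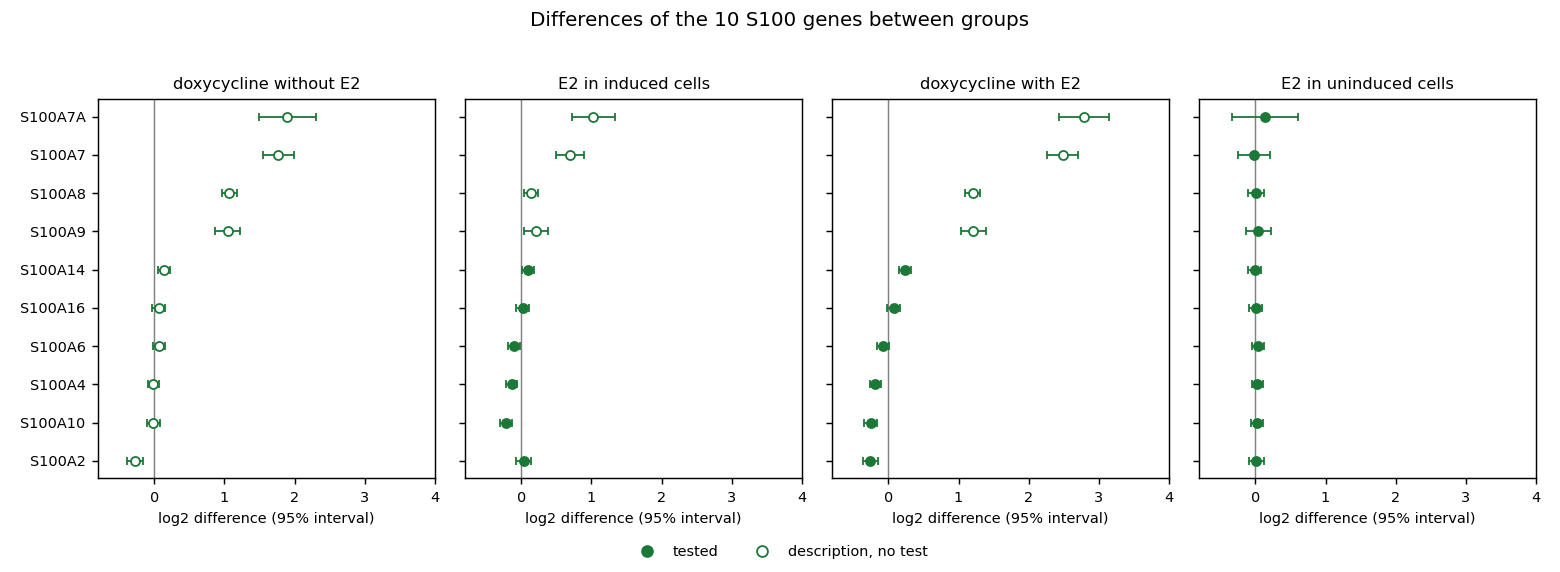
Log2 differences (horizontal axes, points with 95% intervals) of the 10 S100 genes in 4 comparisons: doxycycline without E2, E2 in induced cells, doxycycline with E2 and E2 in uninduced cells. Open points are descriptions with no test; S100A7A and S100A7 lead the first 3 panels, at 1.90 and 1.77 log2 in the first, and all 10 genes lie near 0 in the last.

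Measured per length, the balance among the 10 genes shifted toward S100A9 and S100A7. The 10 genes together made up 0.877% to 0.955% of transcripts in induced E2 libraries, 0.806% to 0.912% in induced vehicle, 0.598% to 0.623% in uninduced E2 and 0.602% to 0.616% in uninduced vehicle. S100A7, S100A7A, S100A8 and S100A9 held 54.2% ± 0.97 of that sum in induced E2 libraries, 46.7% ± 2.60 in induced vehicle, 27.6% ± 0.85 in uninduced E2 and 27.7% ± 1.08 in uninduced vehicle. The other 6 summed to 4179 ± 89.5 TPM in induced E2 libraries, 4470 ± 99.5 in induced vehicle, 4446 ± 56.4 in uninduced E2 and 4411 ± 50.2 in uninduced vehicle.

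In uninduced vehicle cells the order of per-length levels was S100A6 (1726 ± 20.8 TPM), S100A9 (1018 ± 61.6), S100A4 (719 ± 4.57), S100A14, S100A16, S100A10, S100A7 (369 ± 23.4), S100A8 (299.8 ± 1.09), S100A2 (299.6 ± 15.4) and S100A7A (2.23 ± 0.66). Neighbours whose libraries overlapped were S100A14 with S100A16 and S100A8 with S100A2. In induced vehicle cells S100A9 came first (2076 ± 259), then S100A6 (1792 ± 89.6) and S100A7 (1236 ± 228.8). In induced E2 cells S100A9 (2332 ± 181) and S100A7 (1941 ± 134) both stood above S100A6 (1628 ± 61.2), with no overlap between these neighbours. S100A7A was last in every group, at 15.01 ± 2.34 TPM in induced E2 cells.

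**Figure D5:**
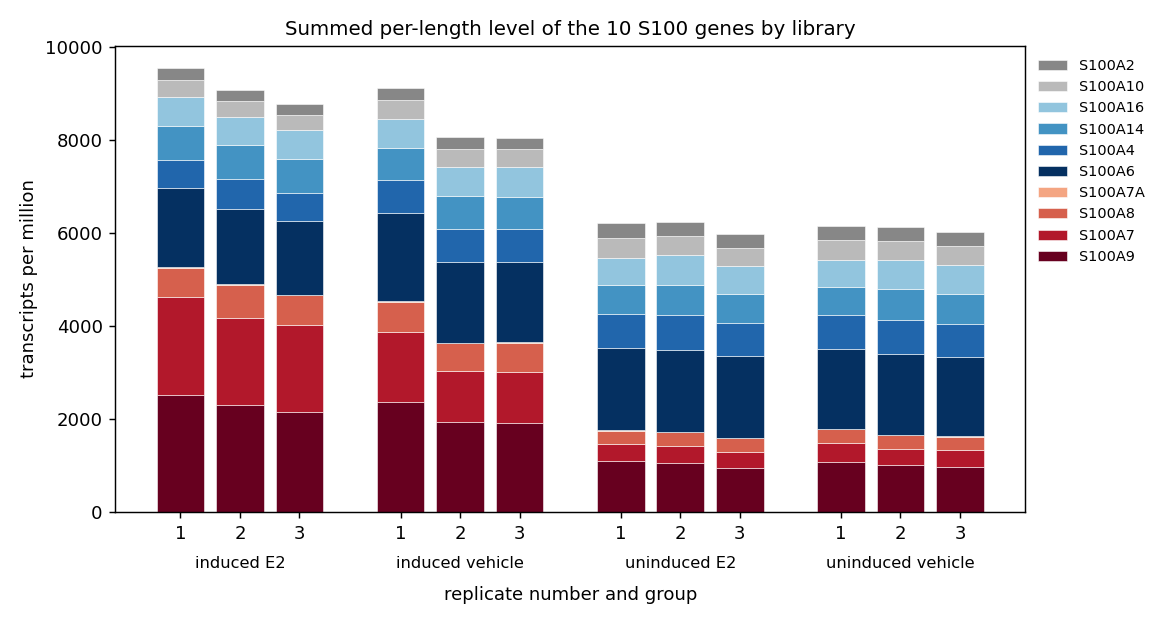
Stacked per-length levels of the 10 S100 genes in TPM (vertical axis from 0) for each library, grouped by treatment, with S100A7, S100A7A, S100A8 and S100A9 in reds at the bottom. The stacks reach 8774 to 9550 in induced E2 libraries and 6016 to 6159 in uninduced vehicle libraries, and the red part holds 54.2% and 27.7% of them on average.

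S100A7, S100A7A and S100A9 also varied with the date in the file names. In a fit with the date as a term beside the groups, later minus earlier libraries differed by -0.22 log2 for S100A7 (SE 0.04), -0.42 for S100A7A (SE 0.06) and -0.18 for S100A9 (SE 0.03), given without a test. S100A10 fell by 0.08 log2 in the later libraries (SE 0.02, adjusted p = 0.0115, edgeR). The date term was called for 17.9% of all genes tested and, of the 6 S100 genes tested, for S100A10. Within numbers, the doxycycline difference without E2 was 1.95 log2 for S100A7 in number 1, on the earlier date, and 1.68 and 1.61 in numbers 2 and 3. For S100A9 it was 1.16 in number 1 and 0.963 and 1.001 in numbers 2 and 3. For S100A7A it was 1.65 in number 1 and 2.09 and 1.68 in numbers 2 and 3, so number 1 was the lowest there. The direction was the same on both dates. Without induced vehicle library 1 the S100A7 difference was 1.61 log2.

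The genes outside the 10 whose levels followed S100A7 most closely over the 12 libraries, by the root mean square difference of centred log2 CPM among 12409 genes, were ANPEP (0.116), a cell-surface aminopeptidase, ABAT (0.204), ITGAL (0.205), complement C3 (0.208) and RIMS4 (0.223). ANPEP averaged 124 ± 16.9 CPM in induced E2 cells, 84.6 ± 13.7 in induced vehicle, 25.9 ± 3.00 in uninduced E2 and 25.6 ± 0.74 in uninduced vehicle. S100A7A stood at 0.2205 from S100A7, between C3 and RIMS4. For S100A8 the nearest outside the 10 were GALNT10 (0.111), a glycosyltransferase, ZNHIT6 (0.115), LTBP1 (0.134), KRT38 (0.134) and TMPRSS4 (0.178), and its partner S100A9 was at 0.113. GALNT10 averaged 545 ± 5.96 CPM in induced E2 cells, 459 ± 6.23 in induced vehicle, 256 ± 5.53 in uninduced E2 and 249 ± 18.8 in uninduced vehicle. For S100A9 the nearest outside the family were GALNT10 (0.141), TTC39A (0.151), FAM46C (0.155), LTBP1 (0.160) and PNMT (0.163).

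Of 11 S100 genes outside the 10, 6 passed the filter. Without E2, doxycycline gave 0 called in either direction, with a median of -0.04 log2 beside 0.00 for all genes. E2 in induced cells gave 1 lower, S100A11, a partner of annexin A1, which fell by 0.17 log2 (SE 0.03, adjusted p = 0.0021 in edgeR). Its call ended without number 2 or 3 (adjusted p = 0.0931 and 0.0726, edgeR). Doxycycline with E2 gave 2 lower, S100A11 by -0.30 log2 (SE 0.03, adjusted p = 8.25e-06) and S100P by -0.40 log2 (SE 0.08, adjusted p = 0.00127), in the same test. Without number 2 the S100P call ended (adjusted p = 0.064, edgeR). Of all genes tested, 3.81%, 16.5% and 28% were called in these comparisons in turn. S100A7L2, described above, is left out of the calls without E2, with or without the block, but is in the median. With the block S100P was called without E2 too, at -0.19 log2 (adjusted p = 0.0149, edgeR), and in the interaction (adjusted p = 0.0404, edgeR). S100A13 differed by less than 0.03 log2 in every comparison.

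The fused-type S100 genes of the same complex, large keratin-associated proteins with an S100 domain, had 2 of 7 members tested. With the block both were called lower without E2, beside 10% of all genes, against 1 with no block, beside 3.81%. Trichohyalin (TCHH) averaged 50.1 ± 4.49 CPM in induced E2 cells, 81.7 ± 6.04 in induced vehicle, 103 ± 12.96 in uninduced E2 and 108 ± 10.0 in uninduced vehicle. It fell by 0.40 log2 with doxycycline without E2 (SE 0.09, adjusted p = 0.0225), by 0.70 with E2 in induced cells (SE 0.09, adjusted p = 8.81e-05) and by 1.04 with doxycycline with E2 (SE 0.09, adjusted p = 7.86e-07) in edgeR. TCHHL1 fell by 0.61 log2 with E2 in induced cells (SE 0.20, adjusted p = 0.0488) and by 1.12 with doxycycline with E2 (SE 0.18, adjusted p = 0.00031) in edgeR. The TCHH call without E2 ended on leaving out number 2 or 3, uninduced vehicle library 1 or 2 or induced vehicle library 2 or 3 (adjusted p up to 0.326, edgeR). The TCHHL1 call with E2 in induced cells ended on leaving out number 2 or 3 or any 1 of the 6 induced libraries (adjusted p up to 0.337, edgeR), and in limma on TPM plus 1 (0.0639). Of 30 cornified envelope genes of the complex, 1 passed the filter, PGLYRP4, a peptidoglycan recognition protein, and it was not called (0.86 log2, SE 0.41, adjusted p = 0.337 with doxycycline without E2, edgeR).

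Of 23 binding partners and receptors of S100 proteins, 20 were tested. Doxycycline without E2 gave 0 higher and 1 lower, E2 in induced cells 1 higher and 2 lower, and doxycycline with E2 3 higher and 5 lower, beside 3.81%, 16.5% and 28% of all genes called. With the block the counts were 1 higher and 4 lower without E2 (10% of all genes) and 2 higher and 5 lower with E2 in induced cells (23.8%). The medians were 0.01, 0.02 and 0.01 log2, beside 0.00, 0.00 and -0.01 for all genes. ANXA2, the partner of S100A10, fell by 0.10 log2 with doxycycline without E2 (SE 0.03, adjusted p = 0.0372) and by 0.19 with E2 present (SE 0.03, adjusted p = 6.79e-05) in edgeR. RANBP9 rose by 0.26 log2 with E2 in induced cells (SE 0.03, adjusted p = 2.77e-05 in edgeR). PPFIBP1, which binds S100A4, fell by 0.26 log2 (SE 0.06, adjusted p = 0.00582) in the same test. The ANXA2 call without E2 ended on leaving out number 2 or 3 or any 1 of the 6 vehicle libraries (adjusted p up to 0.54, edgeR), and also with no filter (0.0615) or in a fit of the 2 groups alone (0.159). The PPFIBP1 call ended without number 2 or 3 (adjusted p = 0.16 and 0.14, edgeR).

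Of 33 inflammatory and antimicrobial epithelial genes, 19 were tested. Doxycycline without E2 gave 1 higher and 4 lower, E2 in induced cells 0 higher and 3 lower, and doxycycline with E2 3 higher and 6 lower, beside 3.81%, 16.5% and 28% of all genes called, with medians of -0.06, -0.12 and -0.23 log2. With the block doxycycline without E2 gave 3 higher and 4 lower, beside 10% of all genes called. E2 in induced cells then gave 2 higher and 5 lower, beside 23.8%. The stress keratins, which like S100A7, S100A8 and S100A9 are raised in psoriatic and wounded skin, fell: without E2, KRT6B changed by -0.86 log2 (SE 0.09, adjusted p = 4.21e-05), KRT16 by -0.68 (SE 0.11, adjusted p = 0.0016), KRT17 by -0.67 (SE 0.11, adjusted p = 0.00311) and KRT6A by -1.17 (SE 0.27, adjusted p = 0.0227) in edgeR. KRT16 averaged 44.8 ± 6.65 CPM in induced E2 cells, 59.8 ± 3.44 in induced vehicle, 99.0 ± 12.1 in uninduced E2 and 97.5 ± 11.7 in uninduced vehicle. The keratins share sequence with one another, so their counts are uncertain. TGM1 and IL1RN fell with E2 in induced cells by 0.42 log2 (SE 0.10, adjusted p = 0.0111) and 0.66 log2 (SE 0.20, adjusted p = 0.0355) in edgeR. Leaving out number 2 ended the calls without E2 of KRT16 (adjusted p = 0.052) and, as number 3 did too, of KRT17 (0.05 and 0.0976) in edgeR. The KRT6A call ended on leaving out number 2 or 3, uninduced vehicle library 1 or 3 or any induced vehicle library (adjusted p up to 0.299, edgeR). The TGM1 call ended without number 2 or 3, induced vehicle library 3 or induced E2 library 3 (adjusted p up to 0.291, edgeR), and the IL1RN call without these or induced vehicle library 2 (adjusted p up to 0.356, edgeR). The IL1RN call also ended in a fit of the 2 groups alone (adjusted p = 0.0762, edgeR).

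Of 18 regulators reported elsewhere for S100A7, S100A8 or S100A9, 17 were tested. Doxycycline without E2 gave 1 higher and 0 lower, and E2 in induced cells and doxycycline with E2 each gave 6 higher and 5 lower, beside 3.81%, 16.5% and 28% of all genes called. With the block the count without E2 was 2 higher and 3 lower (10% of all genes). The medians were -0.04, 0.04 and -0.02 log2. The gene higher without E2 was PRDM1, the transcriptional repressor BLIMP1. It averaged 21.6 ± 0.74 CPM in induced E2 cells, 7.52 ± 0.81 in induced vehicle, 5.31 ± 0.31 in uninduced E2 and 4.61 ± 0.12 in uninduced vehicle. PRDM1 rose by 0.69 log2 without E2 (SE 0.10, adjusted p = 0.000782) and by 1.55 with E2 in induced cells (SE 0.08, adjusted p = 8.19e-09) in edgeR. With E2 in induced cells HIF1A rose by 0.44 log2 (SE 0.05, adjusted p = 8.91e-06), NFKBIZ fell by 0.74 (SE 0.06, adjusted p = 3.48e-07) and the epithelial factor GRHL2 fell by 0.39 (SE 0.04, adjusted p = 2.64e-06) in edgeR. Without number 3 the PRDM1 call in the absence of E2 ended (adjusted p = 0.0866, edgeR).

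S100A8 and S100A9 are also myeloid genes, so myeloid markers were read beside them. The 11 markers summed to 39.9 to 45.2 CPM in induced E2 libraries, 41.6 to 51.9 in induced vehicle, 36.8 to 45.4 in uninduced E2 and 35.1 to 45.1 in uninduced vehicle, and 2 to 4 of the 11 were at 0 in all libraries of a group. FCGR3B and TYROBP were at 0 in every library, and MPO, LST1, FCER1G and PTPRC had at most 1, 2, 3 and 8 counts. Of 5 tested, 2 rose with doxycycline without E2, where 3.81% of all genes were called: CSF1R by 0.72 log2 (SE 0.10, adjusted p = 0.00071) and CSF3R by 1.02 log2 (SE 0.26, adjusted p = 0.044) in edgeR. Of 8 epithelial markers, 3 rose and 2 fell in that comparison, against the same 3.81%, among them KRT8 by 0.27 log2 (SE 0.05, adjusted p = 0.00287), CDH1 by 0.23 (SE 0.04, adjusted p = 0.00343), KRT5 by -0.51 (SE 0.05, adjusted p = 2.43e-05) and KRT14 by -0.81 (SE 0.12, adjusted p = 0.00136) in edgeR. Without number 2 the calls of CSF1R (adjusted p = 0.0588), KRT8 (0.116) and CDH1 (0.128) ended, and without number 3 those of KRT8 (0.0857), CDH1 (0.135) and KRT14 (0.0897), all in edgeR. The CSF3R call ended without number 2 or 3, any uninduced vehicle library or induced vehicle library 2 or 3 (adjusted p up to 0.508, edgeR). It also ended in limma-voom (0.0532), in a fit of the 2 groups alone (0.133) and in limma on TPM plus 1 (0.51 log2, adjusted p = 0.062) or plus 0.1 (0.0705). CD14 differed by -0.35 log2 with E2 in induced cells (SE 0.14), with an adjusted p of 0.129 in edgeR and 0.000144 with the block. All 12 libraries were of 1 cell line. In bulk libraries, fewer cells of a type and less RNA per cell cannot be told apart, and the part of these markers in the S100 values was not tested.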

How the data were processed

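RNA was sequenced from 12 libraries of 1 cell line in 4 groups of 3, grouped by treatment from the labels. The deposited files hold expected counts per gene and each gene's fraction of transcripts, which the authors made with RSEM. RSEM 1.1.16, DESeq 1.7.10 and hg19 are named, per the submitters' processing notes, which give DESeq no role, and no source used here names an aligner. Per the labels' protocols, libraries were made with TruSeq V2.

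Rounded expected counts were fitted in edgeR 4.0.16 (quasi-likelihood, TMM scaling, R 4.3.3) over all 14541 genes kept by filterByExpr (minimum count 10, minimum total 15), with 1 mean per group, 8 residual degrees of freedom and Benjamini-Hochberg adjustment. Calls needed an adjusted p below 0.05. Fractions, rescaled to a common total (TPM), give levels per length and were tested only as an alternative. A floor of 3 counts and the 95% intervals cover the spread of the fit or counting only. The code was tested on simulated data with known changes.

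The 10 genes, the gene lists and the alternatives were chosen with earlier results of these data known. Named were all 10 genes and ESR2, up to 4 called or 2 uncalled members per list and comparison (smallest p), and the 5 genes most like S100A7, S100A8 and S100A9. S100A12, S100A13 and the markers at or near 0 were added after their values were seen. The result for 1 list member is not reported here. Same-numbered libraries correlated at 0.104 to 0.464 in their deviations from group means (18 pairs, 12376 genes). Differently numbered ones ranged from -0.427 to 0.278 (36 pairs). The number was used as a block on this basis, but pairing by number was not told apart from a difference by date. The block fit has 6 residual degrees of freedom. Alternatives were limma-voom (limma 3.58.1), DESeq2 1.42.0, other scalings and filters, 2-group fits, the block, the file date, an adjusted p under 0.01, limma on fractions, and each library or number left out. RefSeq and GENCODE sequences are of another build than the hg19 counts and were used for sequence and gene order only, on which all 10 genes matched.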

Additional observations from a re-analysis of the deposited data

Results flagged for a closer look

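The difference between the E2 effects of induced and uninduced cells passed edgeR's interaction test for 13 named genes. Among the 10 S100 genes it was called for S100A10, at -0.24 log2. Among other S100 and fused-type genes it was -0.24 log2 for S100A11 and -0.64 log2 for TCHH. Among binding partners it was 0.20 log2 for RANBP9 and -0.31 log2 for PPFIBP1, and among inflammatory epithelial genes -0.51 log2 for TGM1. Among regulators it was 1.35 log2 for PRDM1, -0.76 log2 for NFKBIZ, -0.40 log2 for GRHL2 and 0.43 log2 for HIF1A. Among epithelial markers it was 0.94 log2 for CDH1, 0.34 log2 for KRT18 and 0.26 log2 for KRT8. Each value is an E2 effect that differed between induced and uninduced cells, and 8.47% of all genes tested passed the same test. The calls of S100A10, S100A11, TCHH, RANBP9, PPFIBP1, TGM1 and KRT8 ended when number 2 or number 3 was left out, and that of HIF1A without number 3 (adjusted p = 0.0762, edgeR). The TGM1 call also ended in DESeq2 (adjusted p = 0.0564), in limma on TPM plus 1 (0.0507) or plus 0.1 (0.0508) and without any 1 library except uninduced E2 library 3, induced vehicle library 1 and induced E2 library 1. The KRT8 call also ended in limma on TPM plus 1 (0.0768) or plus 0.1 (0.0754) and without uninduced vehicle library 1 or 2, uninduced E2 library 3 or induced vehicle library 2 or 3. The PPFIBP1 call also ended without uninduced vehicle library 1, uninduced E2 library 1 or 3, induced vehicle library 2 or induced E2 library 2 or 3. The S100A10 call also ended without uninduced vehicle library 2 or 3 or induced E2 library 2 or 3.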

How the results depend on the processing

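No named value changed its direction past a threshold under any alternative run. Over all genes, doxycycline without E2 called 554, against 1456 with the replicate block, 1451 with the file date, 296 at an adjusted p under 0.01 and 106 to 1082 with a library or number left out (lowest without number 3). E2 in induced cells called 2394, against 1528 at 0.01 and 990 to 3391 with a library or number left out. Doxycycline with E2 called 4078, and 2054 to 5064 on leaving out. E2 in uninduced cells called 0, against 1 in DESeq2 and 0 to 1 on leaving out. The interaction called 1232, against 2143 with the block, 2146 with the date, 696 at 0.01 and 306 to 2105 on leaving out. Of the 6 S100 genes tested, E2 in induced cells called 2, against 4 with the block, 4 with the date, 1 at 0.01 and 0 to 3 on leaving out. Doxycycline with E2 called 4, and 3 to 5 on leaving out. With upper quartile scaling, or limma on TPM plus 1 or plus 0.1, these comparisons called 3 and 5 in turn. The interaction called 1, against 3 with the block, 3 with the date, 2 with upper quartile scaling, 2 with limma on TPM plus 1 and 2 with plus 0.1, 0 at 0.01 and 0 to 2 on leaving out. Fewer libraries leave fewer degrees of freedom, yet leaving out number 1, on the earlier date, gave the highest counts over all genes. These were 1082 for doxycycline without E2, 3391 for E2 in induced cells, 5064 for doxycycline with E2 and 2105 for the interaction. The cause was not tested. The S100A7A difference with doxycycline without E2 was 1.43 log2 on TPM plus 1, where the pseudocount is large beside its level.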
